A study of Rattus norvegicus with 19 samples.

Results

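Hypoxia-inducible genes were followed in the left ventricle of rats with pressure-overload hypertrophy. They were the 7 genes Bnip3, Vegfa, Adm, Egln3, P4ha1, Ndrg1 and Ddit4, taken by their symbols out of 14217 genes measured. The list was chosen with earlier results of these data known. All 7 were on the array, 5 with 1 probe set and 2 (Vegfa and Ndrg1) with 2. None of their 9 probe sets was at or below 0 on any of the 19 arrays, so every member entered every comparison.

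The hearts came from male rats of the Dahl salt-sensitive strain (Harlan SS/Hsd), which becomes hypertensive when fed salt, and every rat ate 6% NaCl. The combination group (4 rats) received enalapril and paricalcitol, the enalapril group (3 rats) enalapril with vehicle injections, the paricalcitol group (4 rats) paricalcitol, and the vehicle group (4 rats) vehicle injections, each for 4 weeks after 5 weeks of high salt, and these rats were 15 weeks old. The baseline group (4 rats) was taken after the 5 weeks of high salt, at 11 weeks of age, untreated. Enalapril, an inhibitor of the angiotensin-converting enzyme, was infused at 90 ug a day from an implanted pump, the highest dose that, per the submitters, did not lower blood pressure significantly, and paricalcitol, which activates the receptor for vitamin D, was injected at 200 ng 3 times a week. The design names pumps for the enalapril and combination groups alone. No group on a normal diet was analysed here, so all levels are those of salt-fed, hypertrophied hearts. Rat numbers in the labels fall into a separate block for each group, so that cohort and group cannot be told apart, and vehicle against baseline also differs in age.

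Cells sense oxygen through prolyl hydroxylases that use it to mark the hypoxia-inducible factors for destruction. When oxygen is short the factors persist, enter the nucleus and switch on genes that carry hypoxia response elements, among them genes for vessel growth, mitochondrial removal, collagen modification and restraint of growth. Most of these genes also answer to other signals, such as stretch, hormones and glucocorticoids, and a thickened ventricle is a classical setting in which vessel supply can lag behind muscle mass.

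The arrays carried the markers of ventricular muscle. All 9 measured cardiomyocyte markers lay at or above the 99th percentile of gene levels, while of the 3 measured atrial genes Sln was at the floor on all 19 arrays, Myl7 had a mean log2 level of 5.92 and Myl4 one of 7.87. Atrial scores ran from -0.29 to 0.81 in the combination, from -0.12 to 0.26 in enalapril, from -0.83 to 0.72 in paricalcitol, from -0.41 to 0.16 in vehicle and from -0.59 to 0.66 at baseline. Array medians ran from 43.6 to 72.6 intensity units and 16% to 18.2% of values were below 0. Red cell marker scores, the mean over 6 measured markers of the log2 deviation from each gene's mean over arrays, spread widely inside groups, from -0.99 to 0.61 in the combination, from -0.61 to 0.63 in enalapril, from -1.12 to 0.67 in paricalcitol, from -0.30 to 0.51 in vehicle and from -0.04 to 0.85 at baseline.

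Promoters were searched because the hypoxia-inducible factors bind a short core. RefSeq (GRCr8) gave a window of 250 bases before the annotated start for 6 of the 7 genes (Ndrg1 was not among them). The cores ACGTG and GCGTG were searched on both strands, and overlapping matches were counted separately. At least 1 match stood in the windows of 3 members, Bnip3 (4 matches), Ddit4 (2) and P4ha1 (2), and in 36.7% of all 33469 promoter windows. No match stood in the windows of Adm and Egln3 or in either window of Vegfa, which says only that these letters are not in those bases. Below are the windows of the 3 genes that held a match and of Adm, the gene with the largest differences between groups. Capitals mark the matches, and all windows read 5′ to 3′ on the strand of the gene.
Bnip3, chr1:203154963-203155212, minus strand: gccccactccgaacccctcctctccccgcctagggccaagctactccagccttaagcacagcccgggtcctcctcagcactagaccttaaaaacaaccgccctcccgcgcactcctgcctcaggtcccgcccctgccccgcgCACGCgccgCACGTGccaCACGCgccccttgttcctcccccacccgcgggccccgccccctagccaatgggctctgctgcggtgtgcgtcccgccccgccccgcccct
Ddit4, chr20:28437038-28437287, minus strand: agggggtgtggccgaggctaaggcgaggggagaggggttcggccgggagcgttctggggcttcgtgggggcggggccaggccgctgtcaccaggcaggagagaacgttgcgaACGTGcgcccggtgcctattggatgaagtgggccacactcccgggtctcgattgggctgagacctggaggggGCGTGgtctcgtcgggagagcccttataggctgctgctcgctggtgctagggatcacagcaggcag
P4ha1, chr20:27844796-27845045, plus strand: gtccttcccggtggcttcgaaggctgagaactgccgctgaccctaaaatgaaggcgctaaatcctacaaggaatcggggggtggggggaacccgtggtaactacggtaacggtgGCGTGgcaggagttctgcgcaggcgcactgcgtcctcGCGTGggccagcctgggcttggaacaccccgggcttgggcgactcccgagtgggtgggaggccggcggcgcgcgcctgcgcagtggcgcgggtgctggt
Adm, chr1:174179950-174180199, plus strand: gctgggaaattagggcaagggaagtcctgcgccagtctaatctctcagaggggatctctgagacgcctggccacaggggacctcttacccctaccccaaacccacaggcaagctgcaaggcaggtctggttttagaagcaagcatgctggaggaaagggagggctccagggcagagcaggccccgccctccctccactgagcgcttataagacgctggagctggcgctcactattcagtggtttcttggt
In Bnip3 the 4 matches crowd between 108 and 90 bases before the start, with ACGTG on both strands overlapping in one palindrome, and 2.44% of all windows held 4 or more matches. In Ddit4 the matches begin 138 and 66 bases before the start, and in P4ha1 136 and 99. At least 2 matches stood in 16% of all windows. The bases G and C made up 72.4% of the Bnip3 window and 67.6% of those of Ddit4 and P4ha1. In the member windows without a match they made up 46.8% (Egln3) to 60.4% (Vegfa). The shares of all windows were not matched for G and C content.

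Adm showed the largest differences of the 7 genes. It encodes adrenomedullin, a secreted peptide that widens vessels and that muscle, vessel and stromal cells release under hypoxia and stretch. Levels below are intensities after the arrays were equalised, in the units of the deposited table. Adm had 207, 266, 374 and 333 units in the 4 combination hearts and 318, 299 and 339 units in the 3 enalapril hearts. It had 513, 378, 407 and 300 units in the paricalcitol hearts and 541, 514, 677 and 577 units in the vehicle hearts. The baseline hearts had 415, 262, 437 and 192 units. After equalisation every vehicle heart therefore stood above every heart of each of the other 4 groups, although the highest paricalcitol heart (513 units) all but reached the lowest vehicle heart (514 units). The other 4 groups overlapped one another. In the deposited values vehicle and baseline overlapped, with 524 units in baseline replicate 1 and 461 and 487 in vehicle replicates 1 and 2.

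On the log2 scale (intensity plus 16) Adm averaged 8.25 ± 0.36 (SD, n = 4) in the combination, 8.39 ± 0.09 (SD, n = 3) in enalapril, 8.67 ± 0.31 (SD, n = 4) in paricalcitol, 9.21 ± 0.17 (SD, n = 4) in the vehicle hearts and 8.35 ± 0.54 (SD, n = 4) at baseline. All differences here and below are log2, first-named group minus second, with limma's standard error (SE) from a fit over all 19 arrays, and the threshold was an adjusted p under 0.05 over all 14217 genes. Vehicle against baseline gave 0.86 (SE 0.23), a fold of 1.81, with a limma adjusted p = 0.204. The 3 drug groups against vehicle gave -0.96 (SE 0.23) for the combination, -0.82 (SE 0.25) for enalapril and -0.53 (SE 0.23) for paricalcitol, which are folds of 0.515, 0.567 and 0.692. Their limma adjusted p-values were 0.289, 0.776 and 0.476, so Adm did not pass in any comparison, and these 4 comparisons share the vehicle hearts. By unadjusted p (0.000935) it ranked 46th of all genes in the combination against vehicle, and 155th in vehicle against baseline. The size in the last comparison depended on equalisation: in the deposited values without it, it was 0.62, where the median of all genes lay at -0.20.

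Scores of cell type markers are given beside these Adm values. The smooth muscle and pericyte score (12 markers) ran from -0.23 to -0.09 in the combination, from -0.12 to 0.27 in enalapril, from 0.11 to 0.21 in paricalcitol, from -0.18 to -0.07 in vehicle and from -0.05 to 0.28 at baseline. The endothelial score (9 markers) ran from -0.25 to 0.14 in the combination, from -0.14 to -0.06 in enalapril, from 0.01 to 0.22 in paricalcitol, from -0.18 to -0.06 in vehicle and from -0.07 to 0.19 at baseline. The fibroblast score (9 markers) ran from -0.43 to 0.25 in the combination, from -0.345 to 0.15 in enalapril and from -0.35 to 0.58 in paricalcitol. It ran from -0.29 to 0.06 in vehicle and from 0.15 to 0.47 at baseline. In vehicle against baseline 8 of 9 fibroblast and 9 of 10 macrophage markers were lower, where 48.1% of all genes were. With arrays scaled to equal medians these were 7 and 7. In whole ventricle, fewer cells of a type and less RNA per cell cannot be told apart. Combination hearts 1 and 4, with red cell scores of 0.55 and 0.61, had 207 and 333 units of Adm, and hearts 2 and 3, with scores of -0.99 and -0.90, had 266 and 374 units, all below the lowest vehicle heart. The part of these cell types in the Adm differences was not tested.

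**Figure D1:**
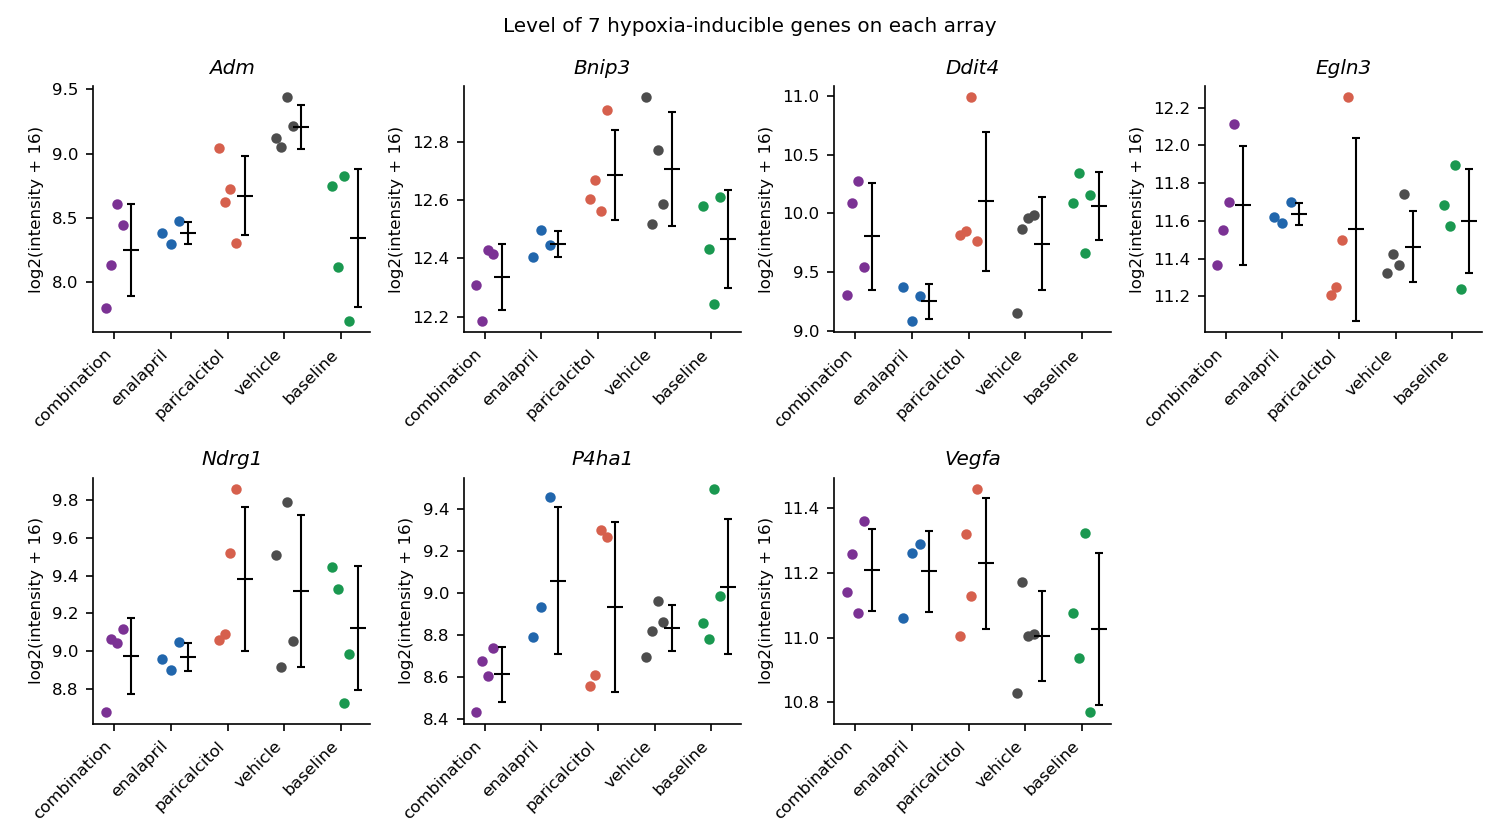
Each panel plots 1 gene on the log2(intensity + 16) scale for the 5 groups, with 1 point per heart and the group mean ± SD in black beside the points (vertical scales differ between panels). For Adm the 4 vehicle hearts lie between 9.05 and 9.44, above the other groups, and for Bnip3 the combination and enalapril hearts lie below the vehicle hearts.

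Vegfa, which encodes the main growth factor of vessel endothelium, differed less between groups. The probe set that represents it had 2243, 2435, 2145 and 2616 units in the combination hearts, 2122, 2438 and 2490 in the enalapril hearts, 2041, 2543, 2225 and 2803 in the paricalcitol hearts, 1804, 2292, 2041 and 2046 in the vehicle hearts and 2143, 1943, 2549 and 1728 in the baseline hearts. All groups overlapped. The means of the 3 drug groups lay close together, at 11.21 ± 0.13 (SD, n = 4) in the combination, 11.20 ± 0.12 (SD, n = 3) in enalapril and 11.23 ± 0.20 (SD, n = 4) in paricalcitol. The vehicle hearts averaged 11.00 ± 0.14 (SD, n = 4) and the baseline hearts 11.03 ± 0.24 (SD, n = 4). The combination, enalapril and paricalcitol differences from vehicle were 0.21 (SE 0.12), 0.20 (SE 0.13) and 0.23 (SE 0.12), and the second probe set gave 0.28, 0.33 and 0.31. With arrays scaled to equal medians the first probe set gave 0.13, 0.14 and 0.07. For vehicle against baseline the probe sets gave -0.02 (SE 0.12) and -0.13 (SE 0.15). None passed, the smallest limma adjusted p of the first probe set against vehicle being 0.587. The sign in vehicle against baseline flipped with scaling: the first probe set was at 0.14 with arrays scaled to equal medians.

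Bnip3, a mitochondrial outer membrane protein that marks mitochondria for autophagy, had the smallest spread within groups of the 7 genes on the log2 scale (within-group SD 0.15). It had 5058, 4644, 5497 and 5451 units in the combination hearts and 5411, 5767 and 5561 units in the enalapril hearts. The paricalcitol hearts had 6203, 6495, 6028 and 7662 units, the vehicle hearts 7909, 5847, 6982 and 6140 units, and the baseline hearts 6107, 5511, 4839 and 6235 units. After equalisation every combination and every enalapril heart lay below every paricalcitol and every vehicle heart, while baseline hearts overlapped all groups. In the deposited values these groups overlapped. There combination replicate 1 had 5786.5 units and enalapril replicate 3 had 6311, while vehicle replicate 2 had 5693 and paricalcitol replicate 1 had 5149. Enalapril against paricalcitol was not among the comparisons, so no share of all genes is given for it. The group means were 12.34 ± 0.11 (SD, n = 4) in the combination, 12.45 ± 0.05 (SD, n = 3) in enalapril, 12.68 ± 0.15 (SD, n = 4) in paricalcitol, 12.71 ± 0.20 (SD, n = 4) in the vehicle hearts and 12.47 ± 0.17 (SD, n = 4) at baseline.

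The combination against vehicle gave a Bnip3 difference of -0.37 (SE 0.10), a fold of 0.772, with a limma adjusted p = 0.442. Enalapril against vehicle gave -0.26 (SE 0.11; limma adjusted p = 0.847), and the combination against paricalcitol -0.35 (SE 0.10; limma adjusted p = 0.292). Paricalcitol against vehicle gave -0.02 (SE 0.10), which was -0.21 with arrays scaled to equal medians, and the combination against enalapril gave -0.11 (SE 0.11). Bnip3 was thus at the lower level in both groups that received enalapril, without passing over all genes, and both groups also carried pumps. Vehicle against baseline gave 0.24 (SE 0.10; limma adjusted p = 0.495), and that value ran from 0.10 in the deposited values without equalisation to 0.43 with arrays scaled to equal medians, and was 0.16 without vehicle replicate 1. Enalapril against vehicle was -0.13 when arrays were left unequalised, with all genes then at a median of 0.17. Smooth muscle markers were lower in the combination than in paricalcitol in 11 of 12 members (median -0.38, against 0.00 for all genes), and their part in the Bnip3 difference was not tested.

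Ndrg1, a stress-induced cytoplasmic protein linked to growth arrest, had 392, 519, 511 and 540 units in the combination hearts and 481, 461 and 513 units in the enalapril hearts. It had 518, 529, 718 and 914 units in the paricalcitol hearts, 713, 467, 868 and 516 units in the vehicle hearts and 682, 627, 407 and 490 units in the baseline hearts. After equalisation the groups given enalapril held no heart above 540 units, but 2 hearts of each other group were as low. In the deposited values enalapril replicate 3 had 596 units, above vehicle replicate 4 (568 units). Group means were 8.97 ± 0.20 (SD, n = 4) in the combination, 8.97 ± 0.08 (SD, n = 3) in enalapril, 9.38 ± 0.38 (SD, n = 4) in paricalcitol, 9.32 ± 0.40 (SD, n = 4) in the vehicle hearts and 9.12 ± 0.33 (SD, n = 4) at baseline. The combination against paricalcitol gave -0.41 (SE 0.22; limma adjusted p = 0.615) and the combination against vehicle -0.34 (SE 0.22; limma adjusted p = 0.762). A second probe set gave -0.46 (SE 0.40) and -0.85 (SE 0.40) in those comparisons, and for paricalcitol against vehicle the probe sets disagreed in sign (0.07 and -0.39), the first being at -0.08 with arrays scaled to equal medians.

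Ddit4 encodes an inhibitor of the mTOR growth kinase that is induced by hypoxia and by glucocorticoids. It had 617, 1076, 1227 and 731 units in the combination hearts, 647, 526 and 611 in the enalapril hearts, 883, 905, 2021 and 855 in the paricalcitol hearts, 553, 919, 981 and 1002 in the vehicle hearts and 1076, 1284, 795 and 1127 in the baseline hearts. After equalisation the 3 enalapril hearts were all below the lowest paricalcitol and the lowest baseline heart, and overlapped the combination and vehicle hearts. In the deposited values enalapril replicate 3 (719 units) was above paricalcitol replicate 1 (700 units). Enalapril was not compared with paricalcitol or baseline over all genes, so no share of all genes is given. The means were 9.81 ± 0.46 (SD, n = 4) in the combination, 9.25 ± 0.15 (SD, n = 3) in enalapril, 10.10 ± 0.59 (SD, n = 4) in paricalcitol, 9.74 ± 0.40 (SD, n = 4) in the vehicle hearts and 10.06 ± 0.29 (SD, n = 4) at baseline. The combination against enalapril gave 0.56 (SE 0.31; limma adjusted p = 0.91) and enalapril against vehicle -0.49 (SE 0.31; limma adjusted p = 0.941). Ddit4 had the widest spread within groups of the 7 genes (SD 0.42), at the 82nd percentile of all genes.

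P4ha1, an alpha subunit of the prolyl hydroxylase that lets collagen fold, had 329, 393, 374 and 410 units in the combination hearts and 426, 472 and 686 units in the enalapril hearts. The paricalcitol hearts had 361, 374, 613 and 600 units, the vehicle hearts 399, 435, 482 and 449, and the baseline hearts 448, 424, 706 and 491. Every combination heart was below every enalapril and every baseline heart. The combination was not compared with baseline over all genes, so no share of all genes is given for that. The means were 8.61 ± 0.13 (SD, n = 4) in the combination, 9.06 ± 0.35 (SD, n = 3) in enalapril, 8.93 ± 0.40 (SD, n = 4) in paricalcitol, 8.83 ± 0.11 (SD, n = 4) in the vehicle hearts and 9.03 ± 0.32 (SD, n = 4) at baseline. The combination against enalapril gave -0.45 (SE 0.21), a fold of 0.734, and did not pass (limma adjusted p = 0.907). That difference ran from -0.58 to -0.25 when single arrays were left out, and it was -0.25 without enalapril replicate 3, the heart with 686 units.

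Egln3 is one of the oxygen-dependent prolyl hydroxylases and is itself induced by the factors it marks. It had 2630, 2989, 3311 and 4410 units in the combination hearts, 3136, 3062 and 3311 in the enalapril hearts, 2354, 2424, 2882 and 4874 in the paricalcitol hearts, 2545, 2733, 2630 and 3406 in the vehicle hearts and 3279, 3030, 3797 and 2398 in the baseline hearts. Group means lay between 11.46 ± 0.19 (SD, n = 4) in the vehicle hearts and 11.68 ± 0.32 (SD, n = 4) in the combination, less apart than the hearts inside any group but enalapril. Differences from vehicle were 0.22 (SE 0.21) in the combination, 0.17 (SE 0.23) in enalapril and 0.09 (SE 0.21) in paricalcitol, none of which passed, and the last was -0.07 with arrays scaled to equal medians. The highest Egln3 levels, 4874, 4410 and 3797 units, were on paricalcitol array 4, combination array 4 and baseline array 3, whose red cell scores were 0.67, 0.61 and 0.85. The lowest, 2354, 2398 and 2424 units, were on paricalcitol array 1, baseline array 4 and paricalcitol array 2, with red cell scores of 0.38, -0.04 and -0.75. Other arrays did not follow that order. Enalapril array 2 and combination array 1, with scores of 0.63 and 0.55, had 3062 and 2630 units, the lowest of their groups. Combination array 3, with a score of -0.90, had 3311 units. The part of red cell RNA in the Egln3 levels was not tested.

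Each comparison was then read for the 7 genes together. In vehicle against baseline 0 of 7 passed in limma, where 0.0844% of all genes did, and 2 (Adm and Bnip3) had an unadjusted p under 0.05, where 9.21% of all genes did. After equalisation the groups did not overlap for Adm alone, against 7.74% of all genes, and in the deposited values Adm overlapped. The median difference of the 7 genes was -0.02, with 3 higher and 4 lower, where 47.1% of all genes were higher and 48.1% lower with a median of 0.00. That tally depended on scaling, with 5 higher and 2 lower (median 0.14) with arrays scaled to equal medians and 2 higher and 5 lower (median -0.19) in the deposited values. All genes had a median of -0.20 in the deposited values. Adm and Bnip3 were above baseline, and Ddit4 (-0.32, SE 0.29) and P4ha1 (-0.20, SE 0.20) below it, under all 3 other scalings too.

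In paricalcitol against vehicle 0 of 7 passed in limma, against 0.0141% of all genes. Only Adm had an unadjusted p under 0.05 (9.63% of all genes) and hearts that did not overlap (5.06%). The median of the 7 genes was 0.09, with 5 higher and 2 lower (49.4% and 45.9% of all genes), and it turned to -0.07, with 2 higher and 5 lower, with arrays scaled to equal medians. In enalapril against vehicle 0 of 7 passed in limma, as did 0% of all genes. Adm and Bnip3 had an unadjusted p under 0.05 (5.64% of all genes), and after equalisation neither overlapped (8.57%). In the deposited values Bnip3 overlapped. The median was -0.26, with 3 higher and 4 lower (53.4% and 46.6% of all genes).

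In the combination against vehicle 0 of 7 passed in limma, against 0.00703% of all genes. The same pair, Adm and Bnip3, had an unadjusted p under 0.05 (7.72% of all genes) and, after equalisation, did not overlap (4.24%). In the deposited values Bnip3 overlapped here too. The median was -0.22 with 3 higher and 4 lower (50.9% and 44.7% of all genes). The pair that recurred did so in comparisons that share the vehicle hearts. Between the combination and enalapril 0 of 7 passed in limma (0% of all genes), 0 had an unadjusted p under 0.05 (5.32%), and P4ha1 alone did not overlap (4.95%). The median was 0.01, with 4 higher and 3 lower (49.8% and 50.2% of all genes), and became -0.16, with 1 higher and 6 lower, in the deposited values. There the median of all genes was -0.11. Between the combination and paricalcitol 0 of 7 passed in limma (0% of all genes). Bnip3 alone had an unadjusted p under 0.05 (9.05%) and, after equalisation only, no overlap (3.43%). There 6 of the 7 genes were lower and 1 higher, with a median of -0.32, where 47.3% of all genes were lower and 48.3% higher. Blocking on replicate number gave 1 gene passing in that comparison in place of 0, and again 0 of 7 (Bnip3 limma adjusted p = 0.28).

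A single limma F test over all 5 groups gave 0 of 7 genes past the threshold, against 0.127% of all genes. Adm (limma adjusted p = 0.266) and Bnip3 (limma adjusted p = 0.31) had an unadjusted p under 0.05, as 10.5% of all genes did. The other 5 had unadjusted p-values from 0.0957 for Ddit4 to 0.871 for Egln3.

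**Figure D2:**
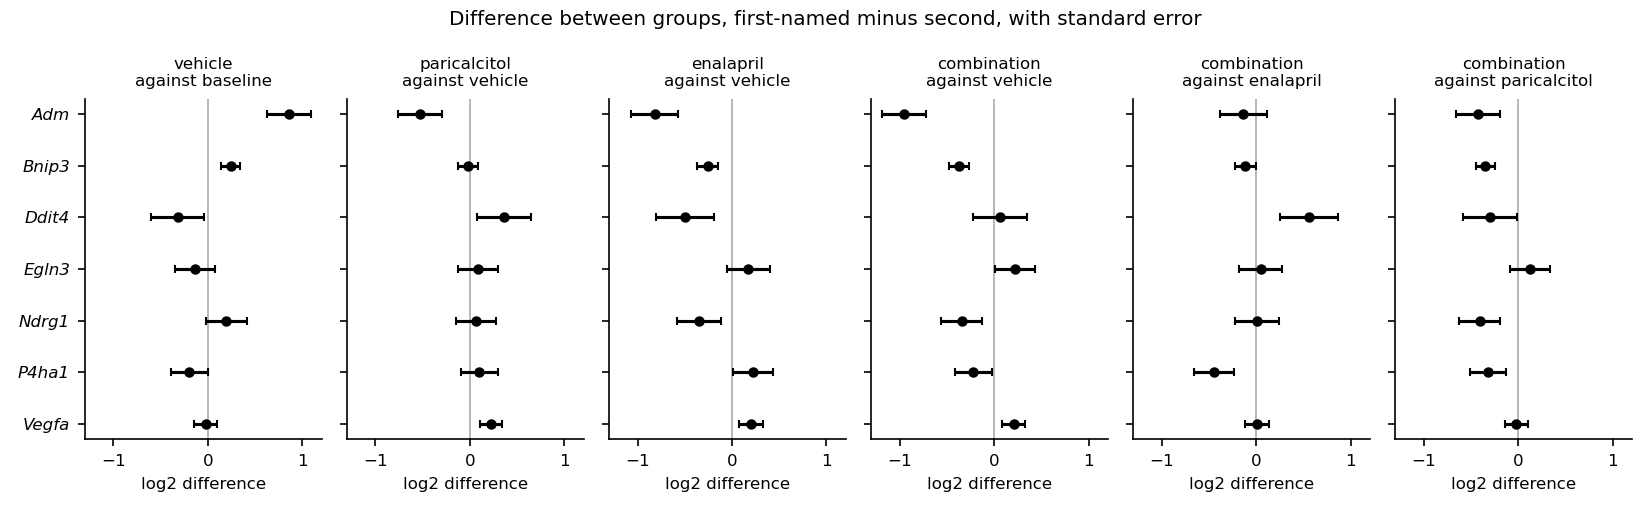
Each panel is 1 comparison, with the log2 difference (first-named group minus second) of the 7 genes as points and limma's standard error as bars. Adm lies at 0.86 in vehicle against baseline and at -0.53, -0.82 and -0.96 in the 3 drug groups against vehicle, and Bnip3 lies below 0 in the panels that set enalapril or the combination against vehicle.

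The 7 genes did not vary together from heart to heart as 1 group. Over the 19 arrays, 2 of the 21 pairs had a Benjamini-Hochberg adjusted permutation p under 0.05 for Pearson's r. The share of all gene pairs that would do so was not computed, so the count is a description. Arrays were permuted across groups, so these p-values also take in differences between group means. Genes outside the list followed these members more closely, such as Cblb for Ndrg1 (r = 0.81) and Srm for Egln3 (r = 0.83). Bnip3 and Ndrg1 had r = 0.73 (permutation p = 0.00052, adjusted p = 0.0109) and Spearman's rho = 0.58 (permutation p = 0.0102, adjusted p = 0.151), with r = 0.60 without the 2 arrays farthest from the median of Bnip3. Their deviations from group means had r = 0.63, so the relation was also present inside groups. Vegfa and Egln3 had r = 0.63 (permutation p = 0.00393, adjusted p = 0.0413) and rho = 0.56 (permutation p = 0.0143, adjusted p = 0.151), with r = 0.43 without the 2 arrays farthest from the median of Vegfa and r = 0.67 inside groups. By Spearman's rho 0 of the 21 pairs had an adjusted p under 0.05. Adm and Bnip3, the pair with the smallest p in the F test, had r = 0.41 over all arrays (permutation p = 0.0779, adjusted p = 0.409) and r = -0.23 inside groups. Pairs measured on the same arrays also share whatever offset of the array normalization left.

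**Figure D3:**
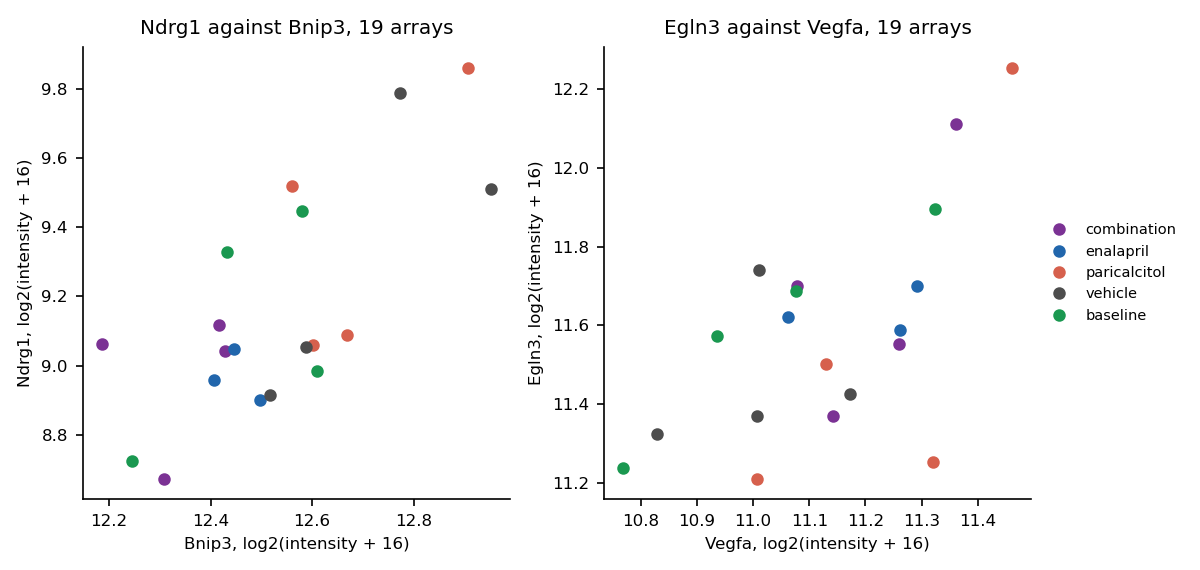
Each point is 1 of 19 hearts, coloured by group, on the log2(intensity + 16) scale of both genes. Ndrg1 climbs with Bnip3 (r = 0.73), with 1 paricalcitol and 2 vehicle hearts at the upper right, and Egln3 climbs with Vegfa (r = 0.63), with 1 paricalcitol and 1 combination heart highest.

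Among 7107 other genes with a mean level above the median, those whose level followed a member most closely over the 19 arrays were named by Pearson's r, as a description. For Adm they were Copz1 (0.72), Fam20b (0.70) and Nedd4 (0.70), of which Nedd4 had 0.39 inside groups. For Bnip3 they were Phyhd1 (0.84), Nqo1 (0.75) and Akr1a1 (0.75). For Ddit4 they were Arrdc3 (0.88), Lyst (0.86) and Rbm5 (0.85), and for P4ha1 Cers2 (0.87), Slc28a2 (0.85) and Plod3 (0.80), the last a lysyl hydroxylase of collagen. For Egln3 they were Srm (0.83), Ccnyl1 (0.82) and Eif3c (0.79), for Ndrg1 Cblb (0.81), Rhoj (0.76) and Fasn (0.73), and for Vegfa Cog2 (0.76), Tardbp (0.74) and Ints4 (0.72).

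The sensing machinery was read from a list of 10 genes, 9 of them measured, in which 0 passed in any of the 6 comparisons. Hif1a, the oxygen-regulated factor subunit, had mean levels of 9.45 in vehicle and 9.89 at baseline, a difference of -0.44 (SE 0.14; limma adjusted p = 0.268), opposite in sign to Adm and Bnip3. It had 0.36 (SE 0.14) in paricalcitol against vehicle and 0.30 (SE 0.14) in the combination against vehicle, again without passing. The list medians ran from -0.08 in the combination against paricalcitol to 0.10 in paricalcitol against vehicle. In the combination against paricalcitol 8 of its 9 genes were lower, where 47.3% of all genes were, and 5 of 9 with arrays scaled to equal medians. In the same comparison 9 of 9 endothelial markers and 11 of 12 smooth muscle and pericyte markers were lower. With arrays scaled to equal medians these were 5 of 9 and 10 of 12. Their part in the list's values was not tested. The list's median in vehicle against baseline was 0.07, and -0.12 in the deposited values, where that of all genes was -0.20.

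Other targets of the factors formed a list of 52 genes, 49 of them measured, and 0 passed in any comparison. Their medians lay between -0.06 (vehicle against baseline, 17 higher and 30 lower) and 0.06 (combination against vehicle, 29 higher and 19 lower), close to the 0.00 of all genes. With arrays scaled to equal medians those tallies turned to 25 higher and 22 lower, and to 21 higher and 27 lower. Single differences in the list ran from -1.12 (SE 0.39) for Hmox1 in vehicle against baseline to 1.18 (SE 0.61) for Tfrc in enalapril against vehicle. Hk2, the hexokinase of heart that hypoxia and insulin induce, had mean levels of 7.84 in the combination and 7.28 in vehicle, a difference of 0.56 (SE 0.19; limma adjusted p = 0.502), while Adm and Bnip3 were lower there. Mxi1, a repressor of Myc, had 9.33 in enalapril and 9.69 in vehicle, a difference of -0.36 (SE 0.12; limma adjusted p = 0.776), which was -0.16 in the deposited values without equalisation and -0.13 with probe sets averaged. Fam162a had 5.05 in the combination and 4.50 in paricalcitol, a difference of 0.54 (SE 0.18; limma adjusted p = 0.36), near the floor of 4 on this scale, and 0.34 with a pseudocount of 32.

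The 20 partners and receptors were all measured, and 0 passed in any comparison. Nrp1 and Nrp2 encode neuropilins, co-receptors for Vegfa. Nrp2 had mean levels of 6.14 in vehicle and 7.03 at baseline, a difference of -0.88 (SE 0.20; limma adjusted p = 0.129), and it passed in 2 alternatives, with array weights and in a fit of only the groups compared. With its probe sets averaged the Nrp2 difference was -0.36. In that comparison 8 of 9 endothelial, 8 of 9 fibroblast, 9 of 12 smooth muscle and pericyte and 9 of 10 macrophage markers were also lower in vehicle (5, 7, 9 and 7 with arrays scaled to equal medians), and their part in the Nrp2 difference was not tested. Nrp1 had 10.85 in paricalcitol and 10.50 in vehicle, a difference of 0.35 (SE 0.09; limma adjusted p = 0.205), and 0.28 (SE 0.09; limma adjusted p = 0.5) in the combination against vehicle. With arrays scaled to equal medians the first value was 0.17 and that of Ndrg4 below was -0.55. Beside these, the endothelial score was at most -0.06 in vehicle and at least 0.01 in paricalcitol, and its part in the Nrp1 difference was not tested. Ndrg4, a relative of Ndrg1 found in heart and brain, had 12.75 in paricalcitol and 13.11 in vehicle, a difference of -0.36 (SE 0.12; limma adjusted p = 0.315). The adrenomedullin receptor gene Calcrl had -0.35 (SE 0.13) in the combination against paricalcitol, and it is named here after its value was seen.

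**Figure D4:**
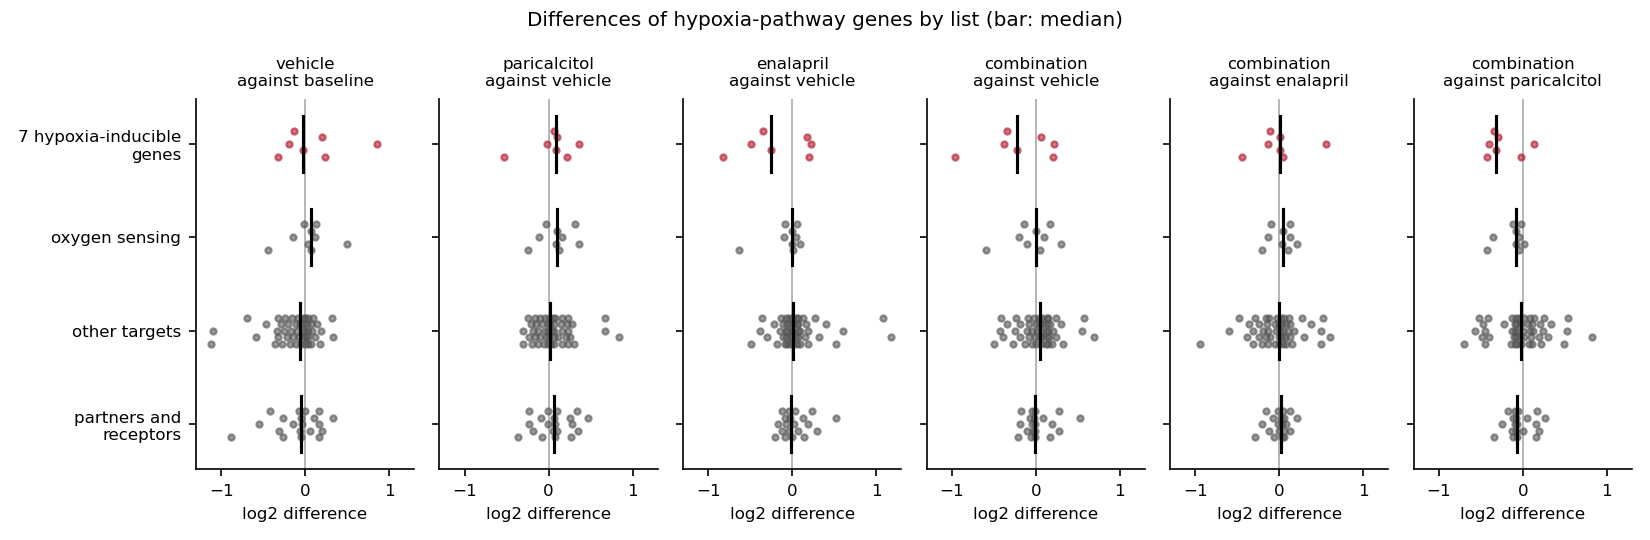
For each of the 6 comparisons, points are the log2 differences of single genes in 4 lists (the 7 hypoxia-inducible genes, oxygen sensing, other targets, partners and receptors) and bars are list medians. The medians of the 3 wider lists lie between -0.08 and 0.10 in every panel, while single genes spread more widely. Adm reaches -0.96 and 0.86, and the other targets reach -1.12 (Hmox1, vehicle against baseline) and 1.18 (Tfrc, enalapril against vehicle).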

How the data were processed

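RNA of the left ventricle was labelled as biotin-marked cRNA for Affymetrix arrays, 1 per rat, per the labels' protocols. The authors' deposited table holds intensities on a linear scale for each probe set, and how they were computed is not given in the sources used here. The table holds negative values, and array medians differ.

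Of 31099 probe sets, 57 controls were dropped and the others quantile normalized, floored at 0 and put on a log2 scale after adding 16. Of these, 20826 named 1 gene, 436 several and 9780 none, and the probe set of highest mean stood for its gene. Using limma 3.58.1 (R 4.3.3), 1 mean per group was fitted to the 19 arrays, with a variance trend and Benjamini-Hochberg adjustment over 14217 genes. The fit was tested on simulated data with independent noise, which does not show its power on these arrays. Correlations used 100000 permutations (numpy 2.4.6).

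Differences were named for members with an unadjusted p under 0.05, or the smallest p of a comparison, and for genes of the 3 pathway lists under 0.01 (markers are given as lists), and others are given as values for completeness. Members and lists were chosen with earlier results of these data known. Nothing in the labels says that rats were paired by replicate number. Same-numbered arrays correlated above 0.1 throughout in only 1 of 10 group pairs, the combination with paricalcitol (0.32 to 0.56), a pairing that rests on the data alone. The number of arrays limits the precision.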

Additional observations from a re-analysis of the deposited data

Results flagged for a closer look

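In groups of 4 hearts, single arrays far from the other 3 were looked for in each of 36 sets of values, a check that flags about 1 in 20 by chance, and 3 were found. Ddit4 was at 10.99 (log2) on paricalcitol replicate 3, where the other paricalcitol hearts had 9.77 to 9.85. Ddit4 was at 9.15 on vehicle replicate 1, where the other vehicle hearts had 9.87 to 9.99. The second probe set of Vegfa was at 8.29 on baseline replicate 4, where the other baseline hearts had 8.88 to 8.93.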

How the results depend on the processing

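The count of the 7 genes past the threshold was 0 in every comparison and in the F test, under all 12 alternatives and all 19 omissions of an array that gave a value (the F test was not run on only the groups compared). The 17 named differences kept their direction in all 525 recomputed values. They were named for small p-values in these same data, so a change of sign was unlikely from the outset. Some differences not so named did change sign with scaling, such as Vegfa in vehicle against baseline. Of the 17, only Nrp2 in vehicle against baseline passed in any, with array weights (-0.87) and with only the groups compared (-0.88). Counts over all genes moved more. In vehicle against baseline 12 genes passed, against 3 in the deposited values, 98 with equal medians, 160 with array weights, 45 with only the groups compared, 7 with probe sets averaged and 0 to 35 in the omissions. In paricalcitol against vehicle 2 passed, against 1 in the deposited values, 214 with equal medians, 1 with cyclic loess, 9 without dimmer genes, 1 without the variance trend, 1 with only the groups compared, 4 with single probe sets and 0 to 10 in the omissions. In enalapril against vehicle the count was 0, against 1 with equal medians and 0 to 2 in the omissions. Between the combination and vehicle it was 1, against 0 in the deposited values, with equal medians, with cyclic loess or without dimmer genes, 2 with only the groups compared, 2 with single probe sets and 0 to 4 in the omissions. Between the combination and enalapril it was 0, and 0 to 2 in the omissions. Between the combination and paricalcitol it was 0, against 65 with equal medians, 1 with probe sets averaged and 0 to 2 in the omissions. In the F test 18 passed, against 3 in the deposited values, 104 with equal medians, 4 without dimmer genes, 46 with array weights, 4 with probe sets averaged and 0 to 26 in the omissions. The replicate block gave 19 genes in vehicle against baseline, 14 in paricalcitol against vehicle, 2 in the combination against vehicle and 1 in the combination against paricalcitol, with no call among the 7 genes. Pairs of genes with correlated levels numbered 2, and 4 in the deposited values. The cause of these changes was not tested.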
